A study of Homo sapiens with 6 samples.

Results

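The genes followed here were MDM4, MDM2 and 6 further genes of the p53 network (TP53BP1, PPM1D, CDKN2A, HIPK2, PPP1R13L and TP53BP2). They were chosen by gene symbol, and every cassette exon event listed for them in the splicing table was taken, whatever its value. Of the 24725 events in the table, 24 belonged to these genes. They lay in 6 of the 8 genes, with 6 events in MDM2, 5 in MDM4, 4 each in TP53BP1 and TP53BP2, 3 in PPP1R13L and 2 in PPM1D. For CDKN2A and HIPK2 no event was analysed here. A cassette exon event is an exon that can be kept between its neighbours or skipped.

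RNA was sequenced from 6 samples of MDA231-BrM2a, a brain-metastatic derivative of the triple-negative breast cancer line MDA-MB-231. The 3 Control samples carried the empty retroviral vector pRetroX-Tight-Pur, and the 3 RBM47 samples carried the same vector with Flag-tagged wild type RBM47, an RNA-binding protein. All 6 received doxycycline, the inducer of this vector, at 10 ng/ml for 3 days. By the study's account the RBM47 cells came from a clone and the Control cells did not, so the transgene and clonal origin cannot be told apart. The sample labels do not say whether the 3 samples of a group were separate cultures, and p-values over them may measure technical spread. Reads of RBM47 itself were not analysed here, so the labels were not checked against the transgene.

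p53 is a transcription factor that halts division or triggers death in damaged cells. MDM2 is the ubiquitin ligase that marks p53 for destruction, and its own gene is a p53 target. MDM4, a relative of MDM2 that binds the same part of p53, blocks its activity and pairs with MDM2. Around this core stand the phosphatase PPM1D, which switches off the damage response, the damage-site protein TP53BP1, and the p53-binding proteins TP53BP2 (ASPP2), which favours the killing function, and PPP1R13L (iASPP), which opposes it.

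The exons on which the results turn were found in GRCh37 by gene and by the span from the far end of 1 flanking exon to that of the other. Events are named below by the outer ends as the table gives them, in a build that the table does not state. The MDM4 events at chromosome 1, 202767941 to 202774058, matched an exon of 68 bases at chr1:204506558-204506625, which is exon 6 of 11 in the canonical transcript and wholly coding. A shorter exon of 39 bases with the same 3′ end, annotated at chr1:204506587-204506625 in a transcript with no defined coding sequence, has the same outer ends. Both are shown because which of the 2 events counts which exon is not given in the sources used here. The MDM4 events at 202778534 to 202782627 matched the 150-base exon 9 of 11 (chr1:204513663-204513812), and the MDM2 event at chromosome 12, 67493600 to 67500420, the 134-base exon 4 of 11 (chr12:69210592-69210725). All 4 lie on the plus strand. Below, exon bases are in capitals and intron bases in lower case, with 25 bases of the intron before the exon and 10 of the intron after it.
MDM4 exon 6, 68 bases: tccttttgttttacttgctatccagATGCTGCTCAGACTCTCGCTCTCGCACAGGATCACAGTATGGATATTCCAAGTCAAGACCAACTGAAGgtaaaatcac
MDM4 exon 6, 39 bases: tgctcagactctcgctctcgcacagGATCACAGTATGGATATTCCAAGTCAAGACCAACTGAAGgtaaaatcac
MDM4 exon 9, 150 bases: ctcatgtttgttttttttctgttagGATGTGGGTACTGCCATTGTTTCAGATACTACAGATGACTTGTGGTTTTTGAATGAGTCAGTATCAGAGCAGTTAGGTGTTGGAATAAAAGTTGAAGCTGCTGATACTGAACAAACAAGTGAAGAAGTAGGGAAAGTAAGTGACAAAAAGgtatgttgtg
MDM2 exon 4, 134 bases: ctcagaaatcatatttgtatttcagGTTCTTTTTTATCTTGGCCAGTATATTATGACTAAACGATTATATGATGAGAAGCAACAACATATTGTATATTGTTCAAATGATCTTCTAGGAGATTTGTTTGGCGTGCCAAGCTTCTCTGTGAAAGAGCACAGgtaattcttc

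In the canonical MDM4 transcript, leaving out the 68-base exon shifts the reading frame. The open frame then ends after 140 residues in place of 490, of which the first 114 are shared and 26 are new. This transcript is known as MDM4-S. The 150-base exon is a multiple of 3, and without it the frame continues to a protein of 440 residues. Leaving out MDM2 exon 4 shifts the frame and ends it after 84 residues in place of 497, with the first 58 shared. A second MDM2 exon, of 45 bases at chr12:69213733-69213777 in a transcript annotated for nonsense-mediated decay, has the same outer ends as this event. A run of 5 or more U (TTTTT on the sense strand, no other motif searched) occurs in the 100 intron bases before the 68-base and 150-base MDM4 exons, but not before MDM2 exon 4. Of 9580 exons matched in this way over the whole table, 40.6% had such a run. Their median length was 107 bases, and 46.0% of the lengths were multiples of 3.

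By the authors' definition, the inclusion rate of an event is taken from reads across exon junctions, as the including-junction reads over the sum of those reads and 2 times the skipping-junction reads. It is given as a fraction for each sample, while read counts are given only as totals of the 3 samples of a group. The including totals also hold reads that do not enter the rates. In 2 of the 24 events, 1 in TP53BP1 and 1 in PPM1D, the rate was 0 in all 6 samples while the including totals of Control and RBM47 were 3 and 2 reads in the former and 4 and 7 in the latter. The depth of each sample is unknown. Over the whole table the totals were 26498401 reads in Control and 24116982 in RBM47 cells, a ratio of 0.910. In 6000 events with a mean rate from 0.1 to 0.9, RBM47 replicate 2 had 14.8% of its rates at exactly 0 or 1, and the remaining samples had 6.10% to 7.63%. In 1392 rows the sample rates did not average to the group averages printed beside them. Among the events followed here this left 22 rows as they stood, and the 2 MDM4 exon 6 events were re-matched through both averages.

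The first comparison asked which exons of these genes differed in inclusion between the groups. MDM4 exon 6 was included less in RBM47 cells by the criteria of the study, in both of its events. These criteria are an unadjusted Fisher's exact p of at most 0.05 on the read totals, 10 or more reads and mean rates that differ by 0.2 or more. They were met by 2 of the 24 events, both lower in RBM47 cells. Over the whole table they were met by 1.41% of 24708 events in either direction and 0.793% in the lower direction. As applied here these shares are 348 and 196 events, more than the changed exons that the paper counts. The paper's own calls were thus not reproduced exactly. The 2 MDM4 events share their outer ends and their skipping reads, so they are not independent. Apart from the sequencing reads, the authors also report an RT-PCR of this exon, in which it was excluded in cells with the transgene. The paper also maps RBM47 binding to RNA and sets it beside its splicing changes. Neither the RT-PCR nor the binding was analysed here, and the tests below concern the RNA sequencing data alone.

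The event with 93 including reads in Control had inclusion rates of 0.586, 0.730 and 1 in Control and 0.636, 0.417 and 0.636 in RBM47 replicates 1, 2 and 3. Mean rates were 0.772 ± 0.210 and 0.563 ± 0.127 (SD, n = 3 each), a difference of -0.209. Control replicate 3 stood highest at full inclusion and RBM47 replicate 2 lowest, while Control replicate 1 lay below 2 of the 3 RBM47 samples, so the groups overlapped. Fisher's exact test, two-sided, on the totals gave p = 0.0392, and 0.298 after Benjamini-Hochberg adjustment over all events.

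The event with 66 including reads in Control had rates of 0.538, 0.643 and 1 in Control and 0.636, 0.333 and 0.5 in RBM47 samples. The means were 0.727 ± 0.242 and 0.490 ± 0.152 (SD, n = 3 each), a difference of -0.237. Again the extremes were Control replicate 3 and RBM47 replicate 2, and RBM47 replicate 1 lay above Control replicate 1. Fisher's exact test, two-sided, gave p = 0.0386, and 0.295 after adjustment over all events.

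Neither difference was called by the tests that see the spread between the 3 samples of each group. In limma, fitted to the rates of 6000 events and called at an adjusted p under 0.05, the adjusted p was 0.575 for the event with 93 including reads and 0.589 for that with 66. The 95% intervals of the differences, from limma on untransformed rates, ran from -0.488 to 0.0700 and from -0.560 to 0.0851. An exact permutation test, two-sided, gave p = 0.3 and p = 0.2, where 3 against 3 samples cannot go below 0.1. Both differences fell short of the required 0.2 when Control replicate 3 was left out (-0.0948 and -0.101) or RBM47 replicate 2 (-0.136 and -0.159).

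**Figure D1:**
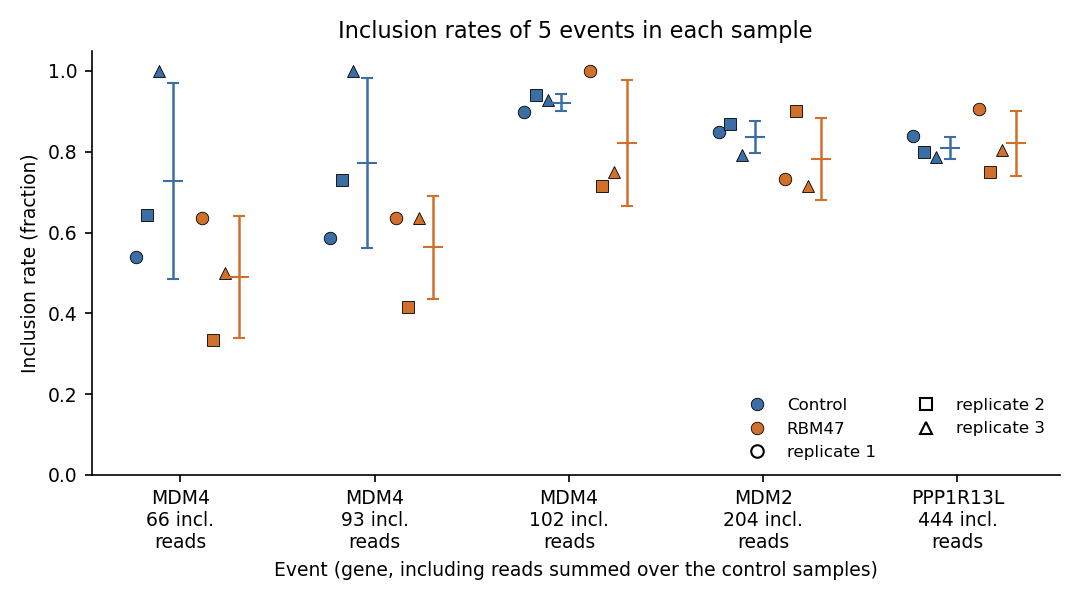
Inclusion rate (vertical axis, fraction) of each sample in the 5 events described sample by sample, named by gene and by including reads in Control; symbols mark replicates, and bars the mean and SD of 3 samples. In every event the Control and RBM47 samples overlap, and in Control the MDM4 exon 6 events (66 and 93 reads) have the largest SDs of the 5, 0.242 and 0.210.

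The read totals were then compared for each isoform. For the event with 93 including reads in Control there were 32 in RBM47 cells, a ratio of 0.344 (95% exact interval 0.223 to 0.519). Skipping reads were 11 in both groups, a ratio of 1 with an interval from 0.393 to 2.54. The share of including reads was 89.4% in Control (95% exact interval 81.9% to 94.6%) and 74.4% in RBM47 cells (58.8% to 86.5%). For the event with 66 including reads the RBM47 total was 23, a ratio of 0.348 (0.207 to 0.568). Including reads were fewer in RBM47 cells, as in the other 3 MDM4 events with ratios from 0.355 to 0.402. The intervals of the including and skipping ratios overlap, but overlap is not a test of their difference. Fisher's exact test compares the isoforms directly and gave p = 0.0392 and p = 0.0386 on these totals. After adjustment over all events these were 0.298 and 0.295. All these intervals cover counting error only and do not see the spread between samples.

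**Figure D2:**
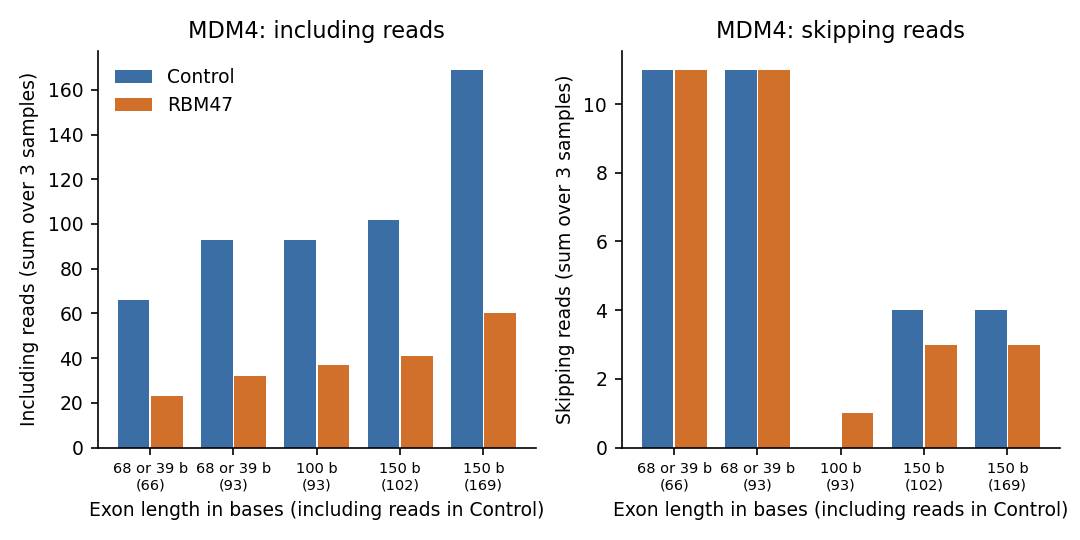
Including reads (left) and skipping reads (right) of the 5 MDM4 events, summed over 3 samples; events are named by exon length in bases, with their including reads in Control in brackets. Including reads are lower in RBM47 cells in all 5 events, and skipping reads of exon 6 are 11 in both groups.

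The other MDM4 events also had lower mean rates in RBM47 cells, but none met the criteria. For exon 9, the event with 102 including reads in Control had rates of 0.897, 0.939 and 0.929 in Control and 1, 0.714 and 0.750 in RBM47 samples. RBM47 replicate 1 lay above all Control samples and the other 2 below them. The mean rates were 0.922 ± 0.0218 and 0.821 ± 0.156 (SD, n = 3 each), a difference of -0.10 with an interval from -0.329 to 0.129 and a limma adjusted p of 0.899. Skipping reads were 4 in Control and 3 in RBM47 cells. The event with 169 including reads shares these skipping reads and had a difference of -0.0654. In the event at 202767941 to 202778694, which skips a partly coding exon of 100 bases, the rate was 1 in every sample except RBM47 replicate 3 with 0.800, from 1 skipping read. This exon (chr1:204507337-204507436) is the downstream neighbour of exon 6, and its upstream neighbour is that of exon 6. Its including form thus lacks exon 6, and its including reads may hold reads that skip exon 6.

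MDM2 exon 4 had inclusion rates of 0.850, 0.869 and 0.792 in Control and 0.733, 0.9 and 0.714 in RBM47 replicates 1, 2 and 3. RBM47 replicate 2 was the highest of the 6 samples and the other 2 RBM47 samples the lowest. Mean rates were 0.837 ± 0.0402 and 0.783 ± 0.102 (SD, n = 3 each), a difference of -0.0543 with an interval from -0.216 to 0.108. Neither limma (adjusted p = 0.846) nor Fisher's exact test on 204 and 16 against 56 and 7 reads (p = 0.307) called it. The remaining 5 MDM2 events were included nearly always. The rate was 1 in all 6 samples in 4 of them, and in the fifth, the 161-base exon 8, it was 0.966 in Control replicate 3 and 1 in the rest. Those 4 events had no skipping read in either group, from 121 to 254 including reads in Control and 26 to 87 in RBM47 cells. By counting error alone, 0 skipping reads (a limit of 3 counts) allow a skipped share of reads of up to 2.48% in Control and 11.5% in RBM47 cells for the least-read of these, so rare skipping was not detectable at this depth.

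The ASPP genes and the 2 damage-response genes had differences between -0.0182 and 0.0302. PPP1R13L had an event of intermediate inclusion at chromosome 19, 50593361 to 50601438, with rates of 0.840, 0.800 and 0.787 in Control and 0.907, 0.750 and 0.805 in RBM47 samples. RBM47 samples held both the highest and the lowest value. Its means were 0.809 ± 0.0274 and 0.821 ± 0.0797 (SD, n = 3 each), with an interval of the difference from -0.0890 to 0.112 and a limma adjusted p of 0.935. A second PPP1R13L event that starts at the same position (50593361 to 50600135) was mostly skipped, at mean rates of 0.0223 and 0.0135. The 200-base coding exon 12 of 13 was nearly always kept, with 1 skipping read beside 1964 including reads in Control and 4 beside 1796 in RBM47 cells.

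TP53BP2 had a pair of events at 222068564 to 222075691 that matched a non-coding exon of 132 bases and shared their skipping reads. It was mostly skipped, and the mean rates of the pair were 0.0199 and 0.0176 in Control against 0.0501 and 0.0428 in RBM47 cells. The highest sample was RBM47 replicate 2 at 0.0857 in both, and the groups overlapped. The 463-base coding exon 12 of 18 was kept at 0.992 or above in every sample. TP53BP1 likewise had exons that were nearly always or rarely used. Its 484-base exon 17 of 28 had mean rates of 0.991 ± 0.00820 and 0.972 ± 0.0354 (SD, n = 3 each), and the other 3 events had mean rates of at most 0.0388 in either group. The 2 PPM1D events share outer ends and skipping reads (119 and 75), and their mean rates were at most 0.0208.

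Apart from the 5 events described sample by sample, the remaining 19 had mean rates above 0.9 in 11 and below 0.1 in 8. Of these 19, 6 had the same mean in both groups, 6 were higher and 7 lower in RBM47 cells, and their smallest Fisher's exact p was 0.120. In limma, 0 of the 5 events with a mean rate from 0.1 to 0.9 were called and 0 had an unadjusted p under 0.05, while 2.23% of the 6000 events tested were called. In rows aligned as deposited alone, which hold 3 of the 5, limma called 5 of 5355 events (0.0934%). After adjustment of Fisher's exact p over all events, 0 of the 24 stayed under 0.05. The groups overlapped or tied in all 24 events, the 5 with a mean rate from 0.1 to 0.9 included, while 17.9% of the 6000 events in that range had groups without overlap. The median absolute difference was 0.0101 over the 24 events and 0.0114 over all events of the table.

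**Figure D3:**
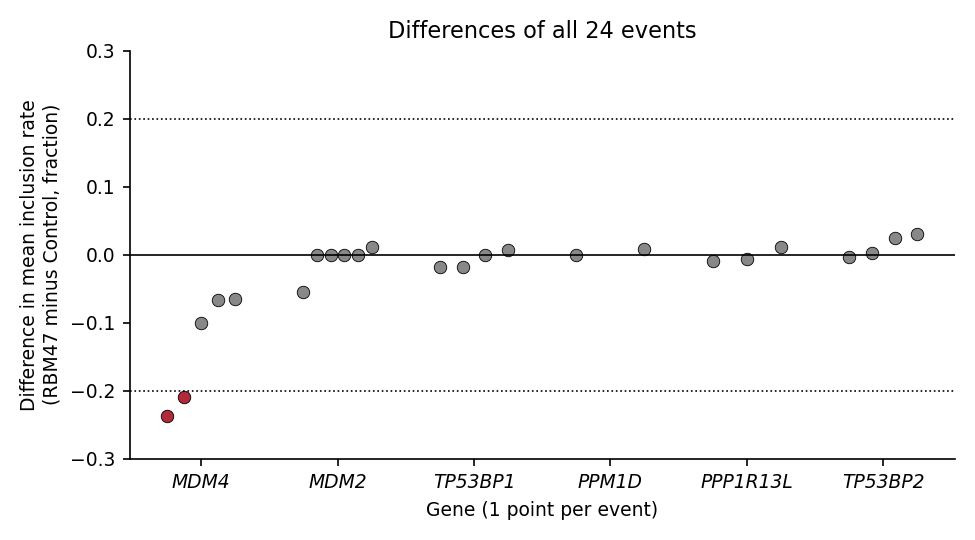
Difference in mean inclusion rate (vertical axis, RBM47 minus Control, fraction) of all 24 events by gene, 1 point per event; red points met the criteria of the study and dotted lines mark 0.2 in either direction. Only the MDM4 exon 6 events lie beyond a dotted line, and all 5 MDM4 events lie below 0.

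The read totals also give the amount of spliced RNA over these exons, and here MDM2 and MDM4 stood low in RBM47 cells. Summed over their events, MDM2 had 1117 Control and 330 RBM47 reads, a ratio of 0.295, and MDM4 553 and 222, a ratio of 0.401. Every MDM2 event had a ratio between 0.211 and 0.343 and every MDM4 event between 0.364 and 0.442. Events of a gene share reads, so the most-read event alone gives the counting error. It had 274 and 88 reads in MDM2, a ratio of 0.321 (95% exact interval 0.250 to 0.410), and 173 and 63 in MDM4, a ratio of 0.364 (0.268 to 0.489). The ratio of the whole table, 0.910, lies outside both intervals. They cover counting error only, not the spread between genes or samples, so this is not a test of either gene.

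The other genes lay closer to the rest of the table. Ratios of summed reads were 0.639 in PPM1D, 0.679 in TP53BP2, 0.890 in PPP1R13L and 0.990 in TP53BP1. For the most-read events the intervals ran from 0.457 to 0.817 in PPM1D and from 0.682 to 0.787 in TP53BP2, both under 0.910, while those of PPP1R13L (0.859 to 0.977) and TP53BP1 (0.925 to 1.11) lay around or just above it. Over 7076 genes with at least 100 reads in Control the median ratio was 0.857 and the middle 50% lay between 0.653 and 1.06. TP53BP2 lay inside this middle 50%, although its counting interval was under 0.910. A ratio under 0.5 was found in 11.0% of these genes and in 2 of the 6 followed here. At or below the ratio of MDM2 were 1.98% of the genes, and at or below that of MDM4 5.51%.

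CDKN1A, a p53 target that encodes the cell cycle inhibitor p21, was chosen for comparison after its values were seen. It had 279 and 405 reads in its 1 event, a ratio of 1.45 (95% exact interval 1.24 to 1.70). At or below this ratio were 95.5% of the genes. It is a single gene picked by its value, and the activity of p53 was not tested. With totals of a group only, no ratio has a test against the spread between samples. Bulk RNA also cannot tell fewer cells with a transcript from less of it per cell.

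**Figure D4:**
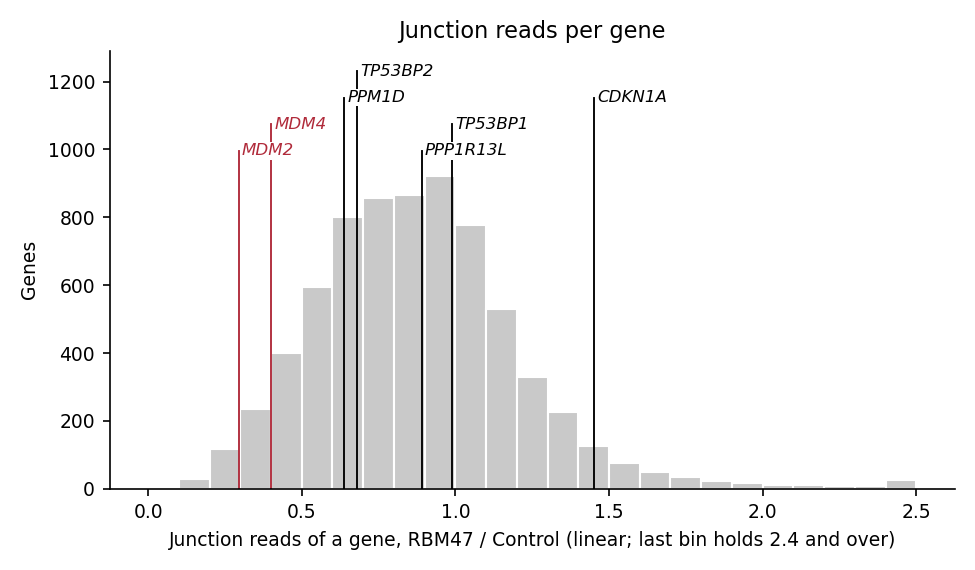
Number of genes (vertical axis) by the ratio of junction reads, RBM47 over Control (horizontal axis, linear), for 7076 genes with at least 100 Control reads. Vertical lines mark the 6 genes followed here and CDKN1A, which was chosen after its values were seen. MDM2 (0.295) and MDM4 (0.401), in red, lie in the lower tail, and TP53BP1 (0.990) beside 1.

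The wider p53 pathway was followed with a list of 124 further genes (kinases, acetylases and ubiquitin enzymes that act on p53, and p53 targets), of which 86 had events, 306 in all. By the criteria of the study 1 event was lower and 0 were higher in RBM47 cells (0.327% of 306, where the whole table had 1.41%). An unadjusted Fisher's exact p of at most 0.05 was found in 42 events, 13.7% against 14.4% in the whole table. In limma 1 of 60 tested events was called (1.67%, against 2.23% of all events tested). Over the 81 list genes with at least 100 Control reads the median ratio of junction reads was 0.829, and 10 (12.3%) were under 0.5.

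The event past the criteria was in USP10, a deubiquitinase that removes ubiquitin from p53 (chromosome 16, 83324541 to 83349913). Its rates were 0.755, 0.784 and 0.815 in Control and 0.516, 0.600 and 0.580 in RBM47 samples, so the groups did not overlap. The difference was -0.219 (Fisher's exact p = 0.00124, limma adjusted p = 0.274), and -0.194 without RBM47 replicate 1. Its row was re-matched through the RBM47 average alone, so its Control rates do not average to the printed Control average. The rates standing in the row as deposited would give a difference of 0.257. The event called by limma was in CSNK1D, a casein kinase that phosphorylates p53 and MDM2 (chromosome 17, 77795526 to 77800178). Its rates were 0.797, 0.836 and 0.845 in Control and 0.680, 0.715 and 0.711 in RBM47 samples, also without overlap. The difference of -0.124 rested on 2255 and 1953 reads and had a limma adjusted p of 0.0324. Its row was re-matched through both averages, and the difference was -0.0178 with the rates in the row as deposited, which belong to another row. From summed reads the difference was -0.122 with including reads halved and -0.0778 as the plain share of including reads. Leaving out any 1 sample raised that adjusted p to between 0.0508 (without Control replicate 1) and 0.161 (without Control replicate 3), while the difference stayed between -0.138 and -0.113.

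Events of other genes with a pattern like the MDM4 event with 66 including reads were sought by the root mean square difference of the 6 sample rates, among 22951 events with 30 or more reads per group. Among the 3 most alike were events in ZNF133 (0.10) and IL15RA (0.110). Both had their highest rate in Control replicate 3 and their lowest in RBM47 replicate 2, as the MDM4 event did. Being picked for likeness to its rates, they share these extremes largely by that choice. Their limma adjusted p was 0.541 and 0.573.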

How the data were processed

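Each row of the table is a cassette exon event. The authors deposited a fraction, the inclusion rate, for every sample, and the including and skipping read count of each group as totals, with their own averages, differences and p-values, of which only the averages were used, to match rates to rows. The labels name TopHat, and the study's methods name STAR and hg19. The aligner behind this table and the build of its coordinates are not given in the sources used here.

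Rates that did not average to the printed averages (tolerance 3e-09) were replaced by those of a row that matched them. This was by both averages in 1122 rows and by the RBM47 average alone in 253, which left 17 rows without rates. In those 253 the Control rates taken do not average to the printed Control average. Fisher's exact test, exact permutation tests and intervals (Clopper-Pearson, conditional for ratios) used scipy 1.17.1. limma 3.58.1 (R 4.3.3) was run on arcsine square root rates with the variance allowed to follow log2 reads, on events with a mean rate from 0.1 to 0.9, and checked on simulated data. Benjamini-Hochberg adjustment was over all events tested. Exons came from GENCODE 44 lifted to GRCh37.

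Events were described sample by sample if Fisher's p was at most 0.05, the difference at least 0.1, or the mean rate 0.1 to 0.9 with at least 30 reads in each group. List genes were named if past the criteria or called by limma, and the 3 most similar events by root mean square difference. Some results on other genes are not reported here. The genes, the list and the tests were chosen with earlier results of these data known. The alternatives tried are given in the closing section. Count models were not run, since they need counts of each sample.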

Additional observations from a re-analysis of the deposited data

How the results depend on the processing

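The 2 MDM4 events past the criteria became 0 with Fisher's p adjusted over all events or a difference of at least 0.3. They also became 0 with rates as the including share of summed reads. Other settings gave 0 but could not test them. A minimum of 50 reads in each group (added after seeing the data) removed both, which had 43 and 34 reads in RBM47 cells. Rows aligned as deposited alone left both out, since both were re-matched. Rates in the row as deposited also gave 0, but belong to other rows. The count stayed 2 with rates from summed reads in which including reads were halved, the formula nearest to that of the rates. Leaving out 1 sample gave 0 to 2, with 0 without Control replicate 3 or RBM47 replicate 2. For the event with 66 including reads the difference was -0.239 with including reads halved, -0.181 as the share of summed reads, -0.143 from medians, and 0.0236, in the other direction, with the rates standing in the row as deposited, which belong to another row. For that with 93 it was -0.216, -0.150, -0.0934 and -0.0260. Leaving out 1 sample gave -0.332 to -0.101 for the former and -0.302 to -0.0948 for the latter. USP10 had -0.225 with including reads halved, -0.161 as the share of summed reads and 0.257 in the row as deposited, and -0.236 to -0.194 without 1 sample. With a difference of at least 0.1 the list had 9 events past the criteria in place of 1 (2.94% of 306, against 3.61% of all events).

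Replicate numbers did not pair the samples: same-numbered samples had correlations of -0.0198, -0.00294 and 0.0152 in their deviations from the group means. With the replicate number as a block, 0 of the events followed here were called, and the adjusted p of the MDM4 exon 6 events was 0.545 (93 including reads) and 0.586 (66). Over the 11 alternative limma settings that held these events it ran from 0.485 to 0.912. The CSNK1D adjusted p was 0.0532 with the block, 0.0573 on log2 odds, 0.285 without the variance trend, 0.125 with all mean rates tested and 0.0177 on untransformed rates. Ratios of junction reads kept their order of size under 1 event per set of outer ends (0.295 in MDM2 and 0.389 in MDM4). Without counts of each sample, the precision of a single rate is unknown, and the 11 skipping reads limit what could be seen in MDM4. Alternatives that need such counts were not run.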
